A study of Mus musculus with 8 samples.

Results

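The genes followed here are 9 subunits of Polycomb Repressive Complex 1 (PRC1): *Ring1*, *Rnf2*, *Bmi1*, *Pcgf2*, *Pcgf6*, *Cbx2*, *Cbx7*, *Cbx8* and *Phc1*. They were chosen by name as core subunits of the complex, without a threshold on their measured values, and were measured by 11 of the 55681 probes of the array (9 of the 20660 genes it names). Of these 11 probes, 10 probes for 8 genes were bright enough to be tested, and the single *Cbx7* probe was not.

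PRC1 silences developmental genes by placing a single ubiquitin on histone H2A, and every form of the complex is built on RING1 or RNF2 (RING1B), the E3 ligases that do this, paired with a protein of the PCGF family. Canonical PRC1 adds a CBX protein, whose chromodomain binds H3K27me3 (the mark made by PRC2, of which EED is a subunit), and a PHC protein, whose SAM domain lets complexes join into larger bodies. Other forms lack CBX and PHC proteins and are set apart by their PCGF subunit, such as the PCGF6 form, which also holds MGA, MAX, E2F6 and L3MBTL2 and silences germline genes in somatic cells.

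All 8 samples were single whole embryos of wild-type *Eed* genotype collected at E8.5 from wild-type mothers (C57bl6/129 per the labels, c57bl/6J in a legend of the study's supplement), each hybridised to its own one-colour Agilent array. The 4 embryos of the first group were sired by *Eed* wt/wt males (wild-type fathers) and the 4 of the second by *Eed* hypo/wt males (heterozygous fathers), which carry a copy of the hypomorphic *Eed* l7Rn5-1989SB allele, in a colony that also carries an *Oct4*GFP transgene. The comparison asks whether an embryo without the allele differs when its father carried it. Each group held 2 female and 2 male embryos, and the 4 arrays of each group lay on 1 slide, which means that slide and father group cannot be told apart. The labels do not say which male or litter each embryo came from. The study's breeding plan names 2 wild-type males and fewer than 4 heterozygous males. If these sired all 4 embryos of a group, some shared a father. A legend of the supplement gives n = 4 per genotype for this comparison, which may count males or embryos. Most embryos of wild-type fathers share the first part of their code in the labels, whose meaning is not stated. Embryos that share this part had a consensus correlation of 0.54. The 4 embryos of a group may therefore not be independent, and p-values measure only the spread between these embryos.

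Arrays differed in how many probes they saw well above background, from 32158 to 39530 in the embryos of wild-type fathers and from 29203 to 38878 in those of heterozygous fathers, and the brightest array of each group (wild-type father replicate 1 and heterozygous father replicate 3) stood apart from the rest. *Xist* and *Ddx3y* matched the labelled sex in all 8 embryos. Markers of the embryo proper, primitive erythroid cells and yolk sac endoderm were well above background on all 8 arrays (7 of 7, 5 of 5 and 6 of 6 genes). Their summed log2 signals overlapped between the groups, with 4.32 to 4.65 against 4.41 to 4.57 for the embryo proper. The sums were 8.86 to 10.05 against 9.50 to 9.84 for erythroid cells, and 8.69 to 9.20 against 8.95 to 9.08 for yolk sac endoderm. With heterozygous fathers, 3 of 7, 5 of 5 and 4 of 6 genes had a log2 fold change above 0, with medians of -0.00, 0.18 and 0.03. Markers of decidua and trophoblast, tissues outside the embryo, were seen on all arrays for 3 of 4 genes (*Tpbpa* on none), with summed signals of 3.49 to 3.93 against 2.67 to 3.56. Among these, the decidual hormone gene *Prl8a2* separated the groups, with 1.56 to 2.92 in embryos of wild-type fathers and -2.61 to 0.72 in those of heterozygous fathers (log2 fold change -2.45, SE 0.75, adjusted p = 1.00 by limma with the unadjusted p under 0.05). It was the only 1 of the 3 tested genes of this list without overlap, against 3.23% of all probes tested. Of these 3 genes, 1 lay above 0 (log2 fold change 0.21) and 2 below. Because *Prl8a2* read at most 0.72 in embryos of heterozygous fathers, most of their summed signal came from other genes of the list. The list named *Prl8a2*, *Prl3d1*, *Prl2c2*, *Tpbpa* and *Hand1*, of which 4 were on the array. Whether the signal of the other genes came from decidua or trophoblast or from the embryo itself was not tested. The part of these tissues in the results was not tested. In whole embryos, fewer cells of a type and less RNA per cell cannot be told apart.

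The promoters of 8 of the 9 genes were found in RefSeq's mouse assembly GRCm38.p6, as windows of 300 bases that end shortly after the transcription start. They held 9 to 37 CpG sites, with a median of 23.5 against 7 over the 32851 promoters of the table. The 3 below are shown because they span what the arrays found: *Phc1*, with the smallest p-value between the father groups, *Rnf2*, 1 of the 2 catalytic subunits, both read on every array, and *Cbx7*, the member that was not reliably detected. Capitals mark the CG pairs, the letters that CpG-binding proteins such as KDM2B, a partner of PRC1, recognise when they are not methylated.
Phc1: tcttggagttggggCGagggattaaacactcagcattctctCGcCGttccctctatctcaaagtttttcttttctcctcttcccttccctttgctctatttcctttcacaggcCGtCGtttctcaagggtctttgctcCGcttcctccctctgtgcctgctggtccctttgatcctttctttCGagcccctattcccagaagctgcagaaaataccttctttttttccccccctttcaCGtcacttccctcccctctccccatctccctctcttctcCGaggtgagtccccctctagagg
Rnf2: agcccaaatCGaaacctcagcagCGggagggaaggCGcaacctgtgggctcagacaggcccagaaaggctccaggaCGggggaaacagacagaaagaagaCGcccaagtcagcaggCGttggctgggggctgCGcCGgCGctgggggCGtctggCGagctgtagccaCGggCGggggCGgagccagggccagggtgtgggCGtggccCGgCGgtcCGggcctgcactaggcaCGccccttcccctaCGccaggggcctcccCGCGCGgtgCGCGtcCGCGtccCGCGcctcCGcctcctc
Cbx7: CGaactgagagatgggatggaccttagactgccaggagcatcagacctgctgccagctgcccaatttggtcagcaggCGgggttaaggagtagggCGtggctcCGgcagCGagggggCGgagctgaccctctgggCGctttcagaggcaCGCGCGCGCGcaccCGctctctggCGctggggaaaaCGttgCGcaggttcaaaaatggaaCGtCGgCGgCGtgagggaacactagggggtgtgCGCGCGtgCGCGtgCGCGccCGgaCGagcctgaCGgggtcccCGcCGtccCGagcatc
The *Phc1* window (chr6:122340178-122340477, minus strand) held 9 CpG sites, the fewest of the 8, the *Rnf2* window (chr1:151500942-151501241, minus strand) held 30, and the *Cbx7* window (chr15:79932597-79932896, minus strand) held 33. Of the 8 windows, only that of *Ring1*, with 37, held more CpG sites than that of *Cbx7*. The E-box CACGTG, a motif that MAX partners can bind, was found in 3 of the 8 windows (*Bmi1*, *Pcgf2* and *Cbx8*) and in 7.15% of all promoters, and GCGGGAA, a form of the E2F motif, was in none of the 8 and in 4.60% of all (both strands were read). These are matches of letters only. Both motifs hold a CG pair, and all 8 windows hold more CG pairs than the median promoter. No share among promoters of like CpG content was taken, so these shares do not compare like with like.

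Between the father groups, none of the 10 tested PRC1 probes was called at an adjusted p under 0.01 with at least a 2-fold change, the cut-off used throughout, and the same was true of all 33093 probes tested (0%). None of the 10 had an unadjusted p under 0.05, against 4.4% of all probes, and none had groups that did not overlap, against 3.23% of all probes. The log2 fold changes (heterozygous over wild-type fathers, limma) lay between -0.14 for *Pcgf2* and 0.21 for *Phc1*, with 4 above and 6 below 0, a median of -0.04 over the member probes and 0.00 over all probes. The 95% intervals of the 10 probes together ran from 0.779-fold to 1.35-fold, so with this scaling a 2-fold change of any of these 8 genes lay outside its interval. These intervals take the embryos as independent and hold for this scaling only. The adjusted p was 1.00 for every member probe (limma, Benjamini-Hochberg over all probes tested). Without the 2 arrays that stood apart, again none had an unadjusted p under 0.05, and the member median was -0.06.

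**Figure D1:**
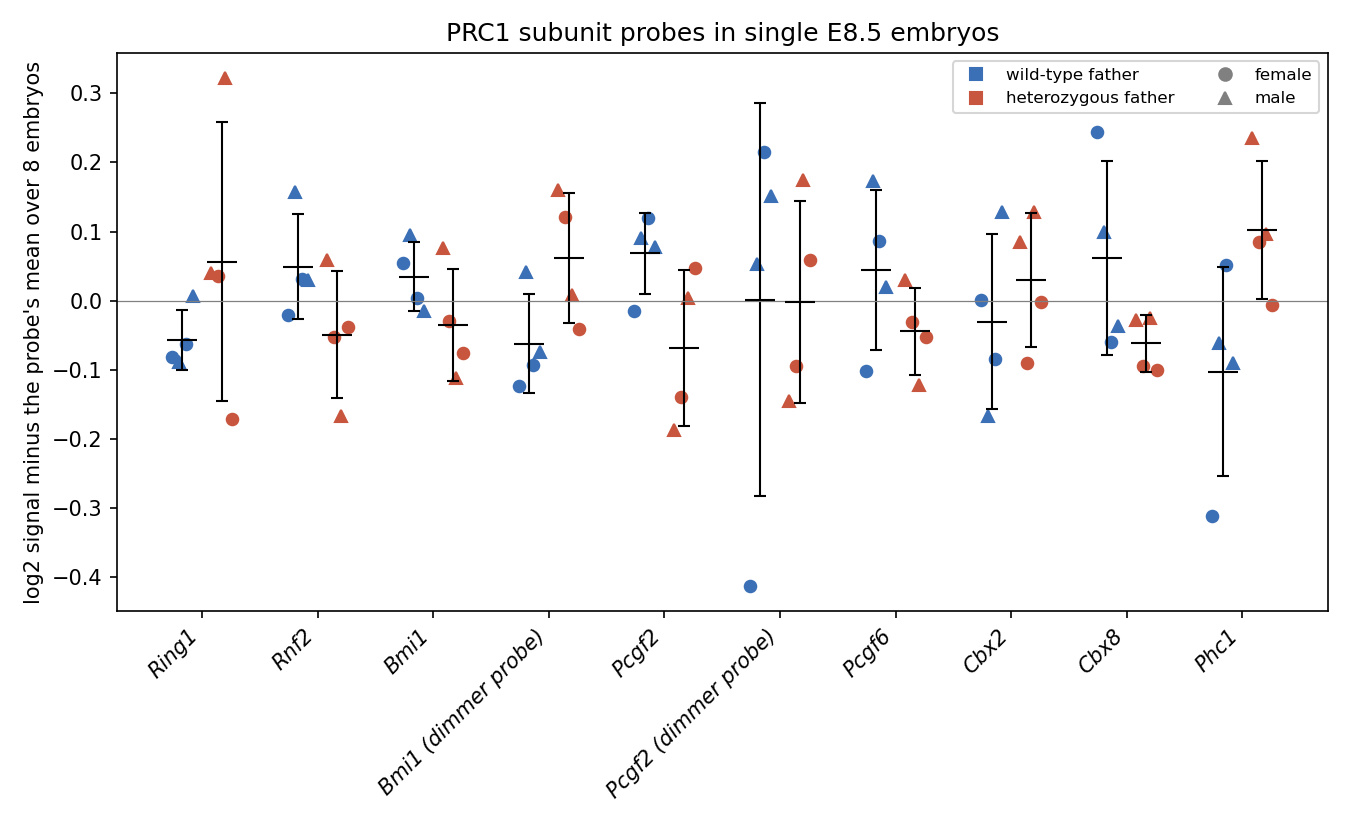
Log2 signal of the 10 tested PRC1 probes in each of the 8 embryos (y axis, log2 signal relative to the array's 75th percentile, minus the probe's mean over all embryos), by gene (x axis). Colours mark the father, shapes the sex of the embryo, and bars the mean and SD of 4 embryos per group; the colours overlap for every probe, and the lowest point is wild-type father replicate 1 on the dimmer *Pcgf2* probe.

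Both genes for the catalytic subunits were seen on all 8 arrays. *Rnf2*, the main H2A ligase of early embryos, had log2 signals (relative to the 75th percentile of each array, as for all signals below) of 2.67, 2.85, 2.73 and 2.72 in embryos of wild-type fathers, replicates 1 to 4, and of 2.75, 2.64, 2.53 and 2.66 in embryos of heterozygous fathers. Replicate 2 of the first group was highest, replicate 3 of the second was lowest, and the groups overlapped. The means of 2.74 ± 0.08 and 2.65 ± 0.09 (SD, n = 4 each) gave a log2 fold change of -0.10 (SE 0.08), with an unadjusted limma p of 0.228. *Ring1*, its paralogue, read -0.43, -0.44, -0.42 and -0.35 with wild-type fathers and -0.31, -0.32, -0.03 and -0.52 with heterozygous fathers. The first 4 embryos lay close together, while the second group held both the highest (replicate 3) and the lowest (replicate 4) of all 8. The log2 fold change of *Ring1* was 0.11 (SE 0.11, limma unadjusted p = 0.323), from means of -0.41 ± 0.04 and -0.30 ± 0.20 (SD, n = 4 each). It was 0.025 without heterozygous father replicate 3, an array that stood apart, and 0.19 without replicate 4 of that group.

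The PCGF subunits decide which form of PRC1 a RING protein enters. *Pcgf2* (MEL18) and *Bmi1* (PCGF4) are the paralogues of canonical PRC1, and each was read by 2 probes. The brighter *Pcgf2* probe read 0.27, 0.37, 0.40 and 0.36 with wild-type fathers and 0.10, 0.14, 0.29 and 0.33 with heterozygous fathers. Replicates 1 and 2 of the second group were the lowest, and replicates 3 and 4 lay within the range of the first. Its log2 fold change of -0.14 (SE 0.08, limma unadjusted p = 0.118; means 0.35 ± 0.06 and 0.21 ± 0.11, SD, n = 4 each) did not pass the test, and became -0.034 with normexp and quantile normalization of the median spot signal. The dimmer *Pcgf2* probe, with -2.04 in wild-type father replicate 1 and between -1.77 and -1.41 in the other 7 embryos, had a log2 fold change of -0.00 (SE 0.15).

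*Bmi1* had the smallest spread of the tested members. Its brighter probe read 2.01, 2.05, 1.96 and 1.94 with wild-type fathers and 2.03, 1.93, 1.84 and 1.88 with heterozygous fathers, a range of 1.15-fold over all 8 embryos. The means of 1.99 ± 0.05 and 1.92 ± 0.08 (SD, n = 4 each) differed by -0.07 (SE 0.07, limma unadjusted p = 0.335) on the log2 scale. The dimmer *Bmi1* probe pointed the other way, with 0.50, 0.66, 0.53 and 0.55 against 0.78, 0.74, 0.63 and 0.58, and a log2 fold change of 0.12 (SE 0.07, limma unadjusted p = 0.137). On neither probe were the groups apart. When the median spot signal was corrected with normexp and quantile normalised, 3 changes made together, the probes parted further, to log2 fold changes of -0.20 for the brighter (adjusted p = 0.583, limma) and 0.18 for the dimmer (adjusted p = 0.624, limma), both with an unadjusted p under 0.05.

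The ratio of both *Bmi1* probes within an array does not depend on any shift of that array. Relative to its mean over the 8 embryos, the log2 ratio of the brighter over the dimmer probe was 0.18, 0.05, 0.10 and 0.06 with wild-type fathers and -0.08, -0.15, -0.12 and -0.03 with heterozygous fathers, so that all 4 embryos of the first group were above all 4 of the second. The difference was -0.19 on the log2 scale and lay between -0.22 and -0.17 with any 1 embryo left out. Over all 3230 transcripts with 2 tested probes, 4.89% had a ratio whose groups did not overlap, and the *Bmi1* ratio was singled out after its values were seen, so no test is given. The *Pcgf2* pair, compared in the same way, overlapped between the groups.

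**Figure D2:**
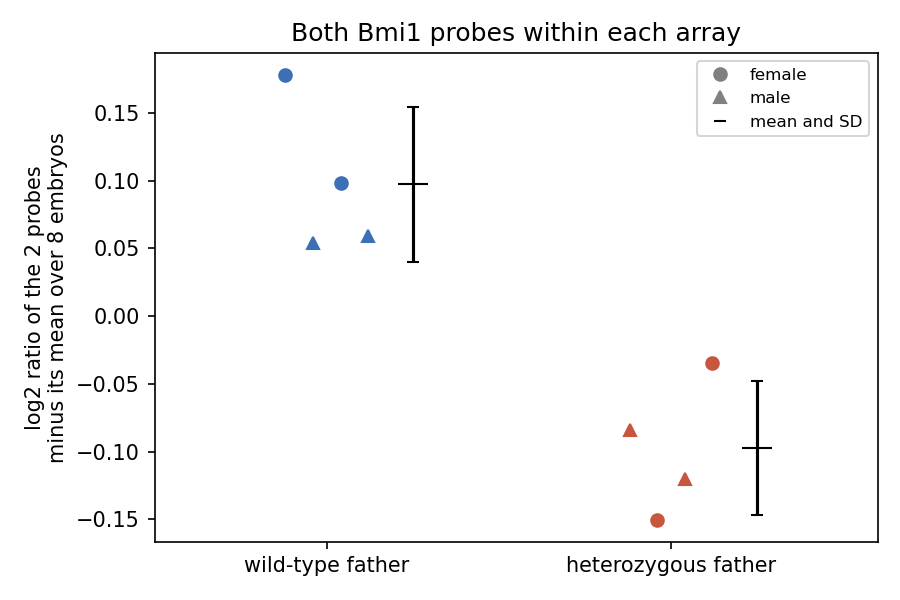
Log2 ratio of the brighter over the dimmer *Bmi1* probe in each embryo, minus its mean over the 8 embryos (y axis), by father group (x axis), with the mean and SD of 4 embryos beside the points. Embryos of wild-type fathers lie between 0.05 and 0.18 and those of heterozygous fathers between -0.15 and -0.03.

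*Pcgf6*, the subunit of the germline-gene-silencing form, read 2.07, 2.35, 2.26 and 2.19 with wild-type fathers and 2.20, 2.14, 2.05 and 2.12 with heterozygous fathers. Both the highest embryo (replicate 2) and the second lowest (replicate 1) were in the first group. The log2 fold change was -0.09 (SE 0.08, limma unadjusted p = 0.301; means 2.22 ± 0.12 and 2.13 ± 0.06, SD, n = 4 each). It was -0.045 without wild-type father replicate 2 and -0.14 without replicate 1 of that group.

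Of the 3 CBX genes, which encode the readers of H3K27me3, *Cbx2* and *Cbx8* lie side by side on the chromosome in RefSeq's gene order. *Cbx2*, whose protein also compacts nucleosomes, read 2.44, 2.27, 2.36 and 2.57 against 2.53, 2.35, 2.57 and 2.44. The groups covered nearly the same range, with a log2 fold change of 0.06 (SE 0.09, limma unadjusted p = 0.514; means 2.41 ± 0.13 and 2.47 ± 0.10, SD, n = 4 each). Leaving out 1 embryo moved this to between 0.015 (without wild-type father replicate 2) and 0.11 (without replicate 4). *Cbx8* read -0.98, -1.13, -1.29 and -1.26 with wild-type fathers and -1.25, -1.32, -1.25 and -1.32 with heterozygous fathers. Wild-type father replicates 1 and 2 were the highest, and the other 6 embryos lay within a narrow band. Its log2 fold change was -0.12 (SE 0.08, limma unadjusted p = 0.184; means -1.16 ± 0.14 and -1.29 ± 0.04, SD, n = 4 each), and fell in size to -0.063 without wild-type father replicate 1.

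*Cbx7*, the main CBX gene of embryonic stem cells, was well above background on 3 arrays only, replicates 1, 2 and 3 of the wild-type fathers, and on no array of the heterozygous fathers. Its signals were -5.40, -5.73, -5.37 and -6.98 against -6.45, -6.25, -4.90 and -5.46. The highest of these, in heterozygous father replicate 3, was itself not well above background, and the group means of -5.87 ± 0.76 and -5.77 ± 0.72 (SD, n = 4 each) give no fold change in either direction.

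*Phc1*, the polyhomeotic subunit, had the smallest unadjusted limma p of the tested members, though far from the cut-off. It read 0.48, 0.73, 0.84 and 0.70 with wild-type fathers and 1.02, 0.87, 0.88 and 0.78 with heterozygous fathers. Of the second group, 3 embryos lay above all of the first, and replicate 4 at 0.78 lay below wild-type father replicate 3. The log2 fold change of 0.21 (SE 0.10; means 0.69 ± 0.15 and 0.89 ± 0.10, SD, n = 4 each) corresponded to an interval of 0.985-fold to 1.35-fold and an unadjusted limma p of 0.0697. The lowest value was that of wild-type father replicate 1, and with any 1 embryo left out the log2 fold change lay between 0.14 and 0.26.

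**Figure D3:**
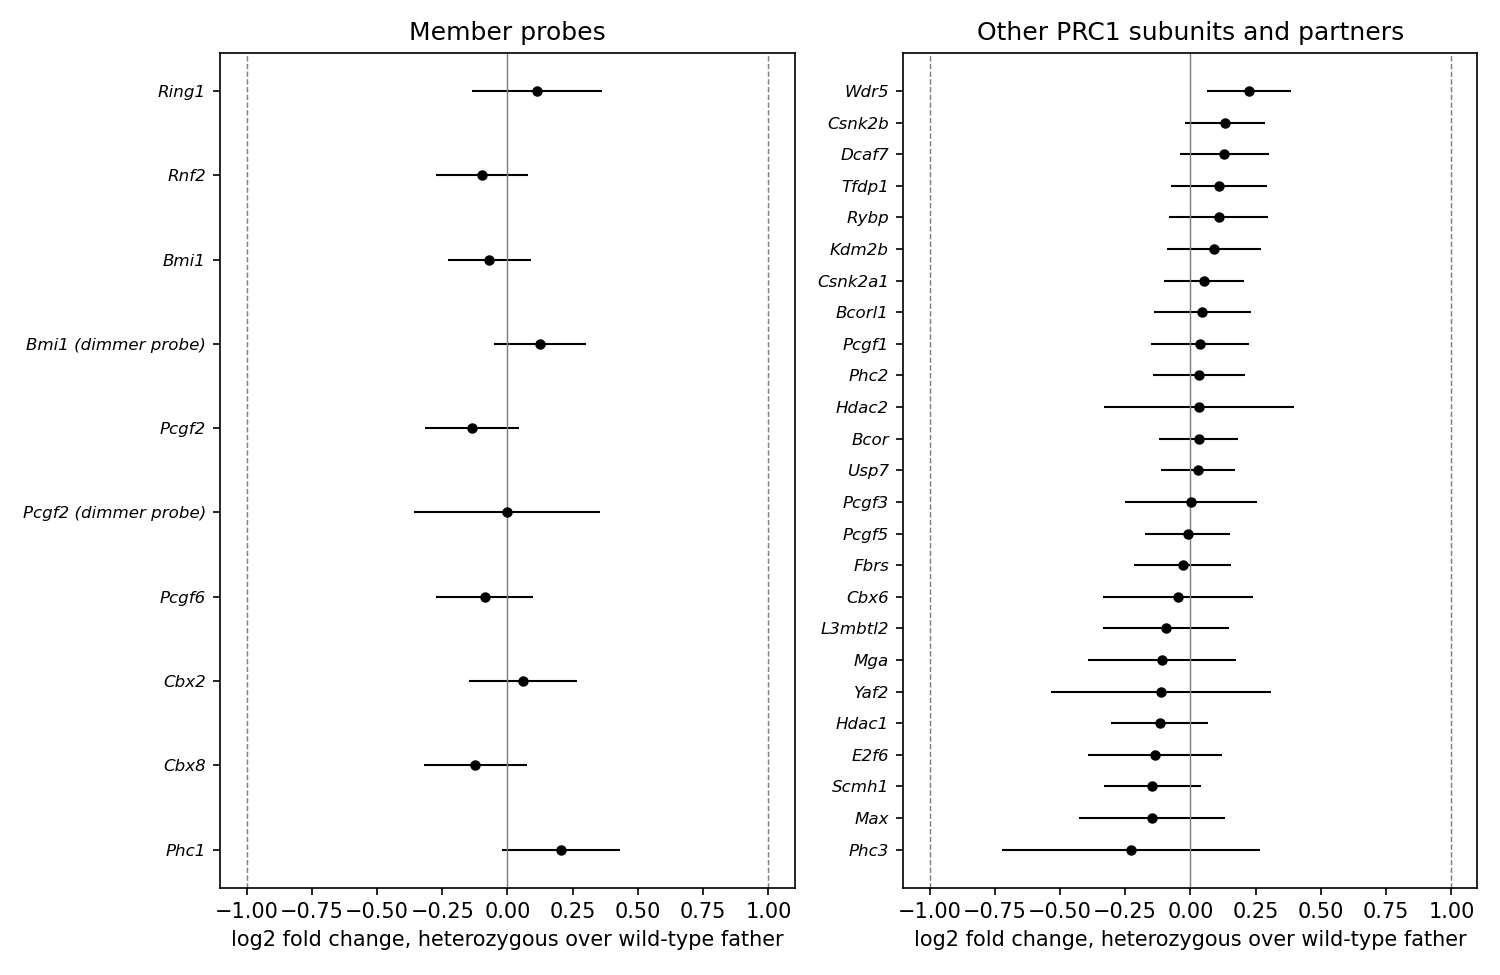
Log2 fold change between heterozygous and wild-type fathers (x axis, points, with 95% intervals as lines) for the 10 tested member probes on the left and 25 other PRC1 subunits and partners on the right. Dashed lines mark 2-fold changes, and every interval lies inside them; *Wdr5* is the only one of the 35 whose interval lies wholly on 1 side of 0.

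Other members of the PRC1 forms were compared in the same way. Of 28 other subunits and partners of PRC1, 26 were on the array and all 26 were tested, each by its brightest probe. Of these, 1 had an unadjusted p under 0.05 and higher signal with heterozygous fathers, and none had lower signal at that level, against 4.4% of all probes in either direction. Of the 26, 15 lay above and 11 below 0, and their median log2 fold change was 0.02. The 1 at an unadjusted p under 0.05 was *Wdr5*, a WD40 scaffold shared with the MLL methyltransferases, which read 4.01, 4.00, 4.05 and 4.08 against 4.27, 4.21, 4.39 and 4.18. All 4 embryos of heterozygous fathers were above all 4 of the others, by 0.22 on the log2 scale (SE 0.07, limma unadjusted p = 0.0129, adjusted p = 1.00), and the count became 0 with the arrays aligned on their medians or with the replicate number in the fit. *Scmh1*, a SAM-domain partner of the PHC proteins, was the only other of the 26 without overlap, at -0.15 (SE 0.08, limma unadjusted p = 0.106). Thus 2 of the 26 had groups that did not overlap, against 3.23% of all probes.

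*Phc3* had the lowest log2 fold change of the 26, -0.23 (SE 0.21), with its lowest signal in heterozygous father replicate 1 at -1.62 and its highest in wild-type father replicate 1 at -0.73. *Kdm2b*, which brings the PCGF1 form to CpG islands, had 0.09 (SE 0.08). Of the partners of PCGF6, *Max* had -0.15 (SE 0.12), *E2f6* -0.14 (SE 0.11), *Mga* -0.11 (SE 0.12) and *L3mbtl2* -0.10 (SE 0.10), all with overlapping groups. *Hdac1*, a deacetylase of the same form, was read by 3 probes that gave -0.12, -0.47 and -0.97, of which the last had an unadjusted limma p of 0.0117 and an adjusted p of 1.00.

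Genes that PRC1 is known to silence came next. Of 10 germline genes silenced by the PCGF6 form, 8 were tested and none had an unadjusted p under 0.05. Their log2 fold changes ran from -0.34 (SE 0.27) for *Stk31* to 0.49 (SE 1.29) for *Tex101*, with 3 above and 5 below 0 and a median of -0.03. *Ddx4*, the germ cell helicase, read -1.71, -1.18, -1.22 and -1.32 against -1.24, -1.72, -1.57 and -1.14, and each group had embryos at both ends. *Dazl* was not well above background on any array.

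Of 6 other targets of PRC1, 4 were tested, again with none at an unadjusted p under 0.05. All 4 lay above 0, with a median of 0.27. *Hoxa13*, a late gene of its cluster, had the highest at 0.79 (SE 0.61), with signals of -3.92, -4.38, -5.73 and -3.48 against -4.44, -4.05, -2.25 and -3.62. Heterozygous father replicate 3, an array that stood apart, was highest for *Hoxa13* and also for *Cdkn2a*, the cell cycle inhibitor locus held down by BMI1, at 1.22 against -0.93 to 0.03 in the other 7 embryos. The brighter *Cdkn2a* probe had 0.10 (SE 0.45), while a dimmer one, well above background on 6 arrays, went the other way at -0.62 (SE 0.62). *Hoxd13* had 0.35 (SE 0.23), and *Hoxb13* and *Hoxc13* were above background on no array.

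No member passed the threshold between the sexes either. Between 4 male and 4 female embryos, with the father in the fit, none of the 10 probes was called (0.0332% of all probes), none had an unadjusted p under 0.05 (3.28% of all) and none had sexes that did not overlap (2.57% of all). The log2 fold changes of males over females lay between -0.01 and 0.14, with a median of 0.06 over the members and 0.02 over all probes. The highest was that of *Ring1* (SE 0.10, limma unadjusted p = 0.210), where the male heterozygous father replicate 3 was the highest embryo. The 95% intervals of the 10 probes together ran from 0.833-fold to 1.41-fold. The father-group difference was tested between males and females too, and the smallest unadjusted limma p among the members was 0.321, for *Ring1* (adjusted p = 0.996).

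The tested member probes differed in their spread between embryos. The SD within groups was 0.07 to 0.23 on the log2 scale, with a median of 0.10 against 0.21 over all probes tested and 0.18 over the 27580 probes seen on all 8 arrays. A low spread was not particular to the members. With 1 probe per gene, the median SD was 0.09 over the 26 other PRC1 genes and 0.07 over 3 PRC2 core genes. In the remaining lists it ran from 0.16 (embryo proper) to 1.17 (decidua and trophoblast). *Bmi1* lay lowest, at the 5.74th percentile of all tested probes, and the dimmer *Pcgf2* probe highest, at the 52.3rd. Over the 8 embryos, the highest and the lowest signal of a tested member probe differed by 1.15-fold (*Bmi1*) to 1.55-fold (*Pcgf2*, dimmer probe). The median deviation of the member probes from their means lay between -0.05 and 0.07 per embryo.

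**Figure D4:**
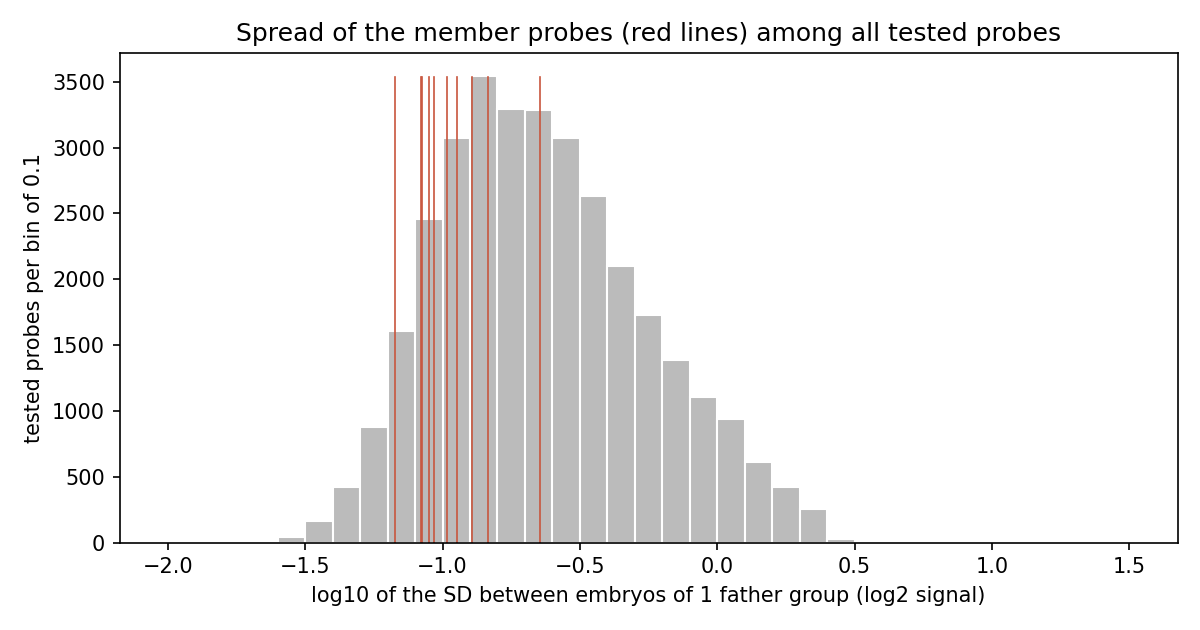
Number of tested probes (y axis) by the log10 of the SD between embryos of a father group (x axis, log2 signal), with red lines for the 10 member probes. The member probes lie between the 5.74th and the 52.3rd percentile.

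Across embryos, 2 pairs of members ran most closely together, though no pair passed the correction for 28 pairs. *Rnf2* followed *Pcgf6* (Pearson's r = 0.897, Spearman's rho = 0.881, exact permutation p = 0.0028 and 0.00724, 8 embryos) and the brighter *Bmi1* probe (r = 0.850, rho = 0.905, exact permutation p = 0.0057 and 0.00456). Among the 28 pairs of the 8 members, 3 had an unadjusted p under 0.05 and none an adjusted one, with 0.0785 and 0.0799 for these pairs. All 3 genes were highest in wild-type father replicate 2 and lowest in heterozygous father replicate 3, both males. Without the 2 embryos farthest from the median on the first gene of each pair, r was 0.724 for *Pcgf6* and *Rnf2* and 0.592 for *Bmi1* and *Rnf2*, and within the embryos of wild-type and of heterozygous fathers it was 0.903 and 0.977 for the first pair and 0.584 and 0.909 for the second. Both genes of a pair share an array and its scaling. With normexp and quantile normalization of the median spot signal the r of *Pcgf6* and *Rnf2* was 0.350 and that of *Bmi1* and *Rnf2* 0.733, with quantile normalization alone they were 0.865 and 0.798, and with the arrays aligned on their medians even *Cbx8* and *Phc1*, which ran in opposite directions here (r = -0.746, rho = -0.286), reached 0.862, so these values depend on the scaling.

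**Figure D5:**
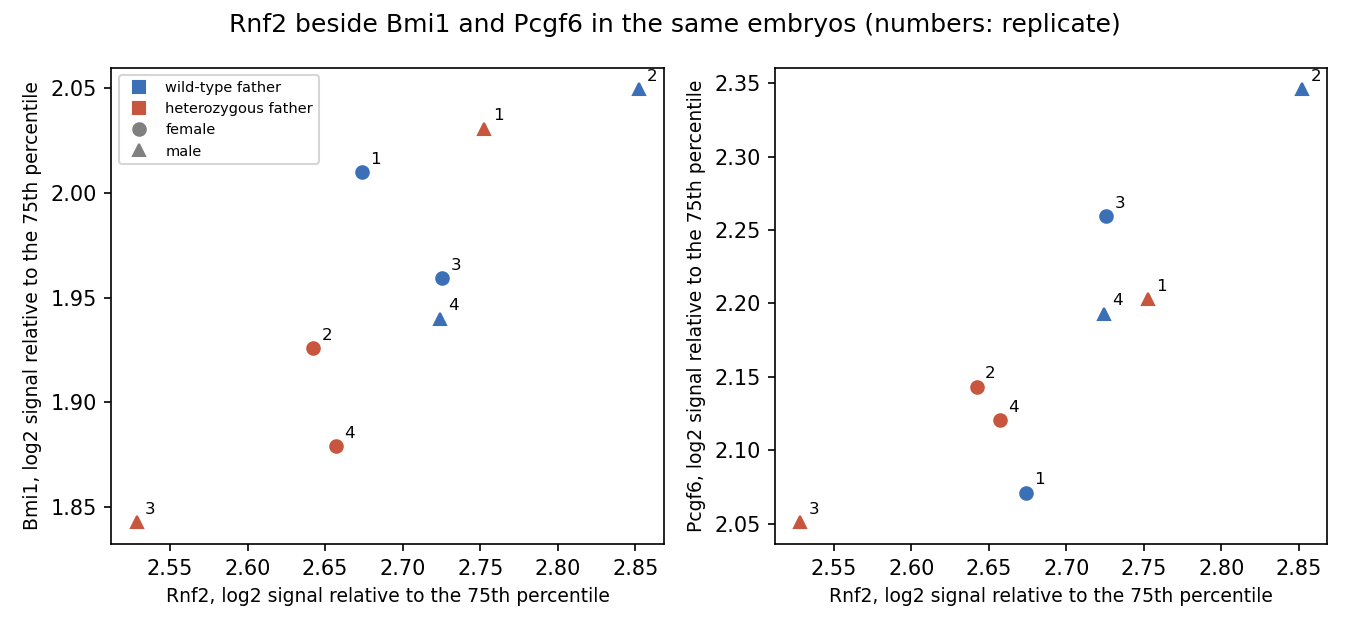
Log2 signals of *Rnf2* (x axis) beside *Bmi1* (left y axis) and *Pcgf6* (right y axis) in the 8 embryos, relative to the 75th percentile of each array; colours mark the father, shapes the sex, and numbers the replicate. Wild-type father replicate 2 is at the top right and heterozygous father replicate 3 at the bottom left of both panels.

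The genes whose signal ran most like that of a member over the 8 embryos, of 15377 genes compared, were *Tmem131* for *Pcgf6* (r = 0.980), *Leng9* for *Rnf2* (0.962), *Vdac2* for *Bmi1* (0.946), *Htatsf1* for *Pcgf2* (0.957), *Gpr85* for *Cbx2* (0.953), *Kctd21* for *Cbx8* (0.949), *AU022252* for *Phc1* (0.981) and *Ddit4l* for *Ring1* (0.983). None of these partners was itself a subunit of PRC1. With 8 points and so many genes, such values describe these embryos only.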

How the data were processed

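RNA from 8 single wild-type E8.5 embryos was labelled with Cy3 and hybridised to Agilent 8x60K arrays (59305 non-control spots). The authors scanned the slides and extracted them with Agilent Feature Extraction 11.0.1.1 (per the labels), and deposited 1 intensity value per spot, corrected for background but not scaled between arrays. The same intensity values, rounded, are also deposited together for all arrays, and were used as an alternative.

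The log2 intensity was shifted by each array's 75th percentile. Outlier spots were left out. Probes were tested with limma (version 3.58.1, with R 4.3.3 and data.table version 1.17.8) if well above background on at least 4 of 8 arrays and above the lowest 20% by mean signal. The test was checked on simulated data with independent embryos, no slide effect and no array that stood apart. That check does not cover these features of the real data. The brightest tested probe stood for a gene. RefSeq gave symbols for 27235 of the 28685 probes with an accession. Correlations were tested over all 40320 orders of the embryos, and the number of arrays limits the precision. Alternatives were other scalings, filters, moderation, array weights, sex, replicate number or embryo code in the fit, and each embryo left out. Python 3.11.15, numpy 2.4.6, pandas 2.3.3 and matplotlib 3.10.9 made the promoter counts and figures.

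The 9 members, named in full, and the gene lists were chosen with earlier results of these data known. A single gene of the lists is not reported here.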

Additional observations from a re-analysis of the deposited data

How the results depend on the processing

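Normexp was run on the median spot signal, the column the files hold, and followed by quantile normalization, so what is given with normexp combines 3 changes (signal, background correction and scaling) that are not told apart. No member probe was called under any alternative. The count of member probes at an unadjusted p under 0.05, 0 in the reported fit, became 3 with normexp and 1 with array weights, and was 0 to 1 when 1 embryo was removed, the 1 being *Phc1* without wild-type father replicate 3. The 3 with normexp were both *Bmi1* probes, in opposite directions, and *Rnf2* (-0.18, adjusted p = 0.589, limma), and the 1 with array weights was *Pcgf2* (-0.19, adjusted p = 0.465, limma). The member median of -0.04 became -0.14 with the arrays aligned on their medians, where that of all probes was -0.10, -0.087 with array weights, -0.019 with normexp (all probes -0.02) and -0.0014 with a random block for the embryo code (all probes -0.01), and was -0.06 to -0.02 when 1 embryo was removed. The count of other PRC1 genes, 1, became 3 with normexp, 0 with medians aligned, 2 with quantile normalization, 2 with trend and robust moderation, 2 with array weights and 0 with the replicate block, and 1 to 2 on removal of 1 embryo (2 without heterozygous father replicate 3). The log2 fold change of *Cbx2* turned to -0.0037 with normexp and -0.045 with medians aligned, that of *Pcgf6* to 0.018 with normexp, and that of *Bmi1* to 0.027 with the mean of both its probes. The *Bmi1* probe ratio, added after the data were seen, differed by -0.37 with normexp and by -0.20 with quantile normalization alone. The cause of these changes was not tested. Same-numbered embryos of both groups did not deviate together (r between -0.59 and -0.05). The lowest r were those of replicates 1 (-0.55) and 3 (-0.59), which each hold 1 of the arrays that stood apart. Same-numbered embryos were also of opposite sex, so this check cannot tell whether the numbers pair embryos. The replicate block changed no member's call.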
